A study of Rattus norvegicus with 16 samples.

Results

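Kidneys of DOCA-salt rats given finerenone were compared with kidneys of DOCA-salt rats given vehicle by bulk RNA-Seq. The comparison took 4 finerenone libraries and 3 DOCA libraries, which are 7 of the 16 libraries of the series, by the group names in the sample labels. Rats of both groups were male Sprague-Dawley rats per the labels and the study's methods. All had lost 1 kidney, received weekly injections of DOCA (deoxycorticosterone acetate, a steroid that activates the mineralocorticoid receptor) and drank salt water, so the groups differed by daily gavage with finerenone or with its vehicle. The labels give 6 weeks under age for every library, whereas the methods give 6 weeks as the length of the treatment. Control rats had a sham operation without DOCA, and spironolactone rats had the same surgery, DOCA and salt with another receptor antagonist. These groups entered the fit and are shown only for reference. DOCA replicate 4, taken to be the library the study set aside, was not among the libraries compared.

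The mineralocorticoid receptor is a nuclear receptor that binds aldosterone and DOCA and then acts as a transcription factor. In the kidney it is best known in the distal nephron and collecting duct, where it raises sodium reabsorption through the epithelial sodium channel and the sodium-potassium pump. Finerenone is a nonsteroidal antagonist of this receptor, whereas spironolactone is a steroidal one, and excess receptor activity with salt leads to hypertension, inflammation and fibrosis.

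Each library carries a code of 2 numbers. The first number was 2 in finerenone replicates 1 and 3 and 3 in finerenone replicates 2 and 4, and it was 7 in DOCA replicates 1 and 2 and 8 in DOCA replicate 3. What the number stands for was not given in the sources used here. No first number occurred in both groups, so no comparison of the groups could be made within a code number, and the effect was instead examined in each finerenone code number against the same DOCA libraries. The labels do not say that each library is a separate animal, and p-values measure the spread between these libraries.

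The 7 libraries held between 7068949 and 8056935 counts, and both groups overlapped in depth. A count was recorded for 18039 of 32623 Ensembl gene IDs in at least 1 of the 7 libraries, and 14133 genes passed the filter of a count above 4 in at least 3 of them. The remaining 3906 genes with a count took under 0.1% of the counts of each library. The files do not pair the IDs with names and the gene table used here has no Ensembl IDs, so no ID was named here. Gene families, pathways, mineralocorticoid target genes and the markers of kidney cell types were therefore not examined, and the labelled tissue was not checked against its markers. The distance between libraries, as the root mean square difference in log2 CPM (counts per 1000000 counts of a library), was between 0.669 and 0.734 from DOCA to finerenone libraries. It was between 0.475 and 0.493 among DOCA libraries, so every finerenone library lay farther from every DOCA library than DOCA libraries lay from each other.

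Finerenone kidneys differed from DOCA kidneys in 2021 of 14133 genes (14.3%) by edgeR's quasi-likelihood test. Of these, 885 genes (6.26%) were higher and 1136 genes (8.04%) were lower with finerenone. A gene was called when its Benjamini-Hochberg adjusted p was under 0.05 and its absolute log2 fold change was at least 0.5. Without the limit on the fold change 3117 genes passed, of which 1649 were higher and 1468 lower. An unadjusted p under 0.05 was found for 4930 genes, where 707 would be expected if no gene differed. In bulk tissue, fewer cells of a type and less RNA per cell cannot be told apart.

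Most changes were moderate in size. Called genes had a median absolute log2 fold change of 0.80, with a median standard error (SE) of 0.18. Among genes called higher the median was 0.73, with 0.53 and 1.28 at the lower and upper deciles. Among genes called lower the median was -0.89, with -1.70 and -0.57 at the lower and upper deciles. Falls reached a large size more often than rises: 446 genes fell and 202 rose by a log2 fold change of at least 1, and 65 fell and 21 rose by at least 2. Of the called genes 1935 (95.7%) had no overlap between the CPM of the 4 finerenone and the 3 DOCA libraries, whereas 33.3% of all genes tested had none. The genes were called on these same libraries, so this separation is in large part fixed by the call.

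**Figure D1:**
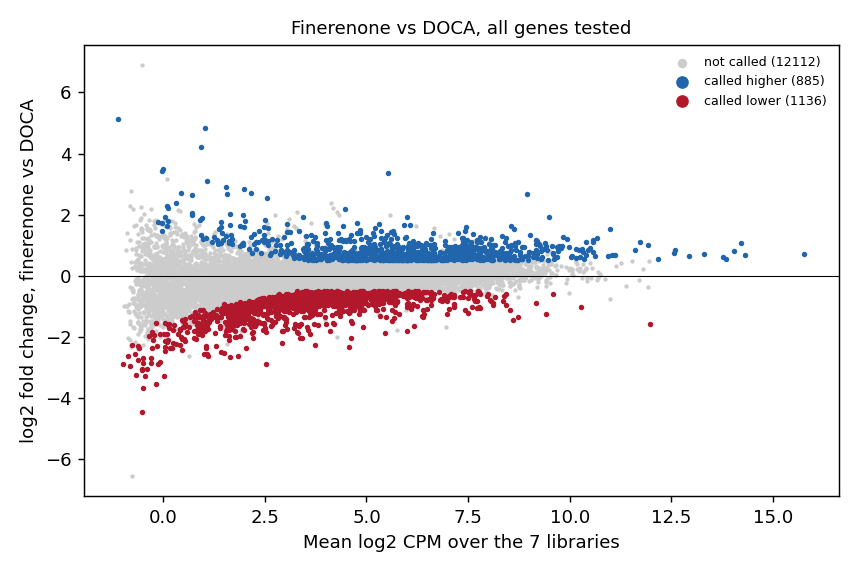
Each point is 1 of 14133 genes, with the mean log2 CPM over the 7 libraries on the x axis and the log2 fold change of finerenone vs DOCA on the y axis. The 885 genes called higher (blue) extend to the most abundant genes, whereas most of the 1136 genes called lower (red) lie at low and middle abundance.

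The balance of rises and falls depended on the processing, mainly on how libraries were scaled to each other. With TMM scaling 43.8% of called genes were higher, and with RLE scaling 45.2%. The share was 32.9% with upper quartile scaling and 10.9% with library size alone. Over all genes the median log2 fold change was -0.29 with library size alone, against -0.03 with TMM, so on that scale the typical gene was lower in finerenone kidneys. With limma on log2(TPM + 1) the share was 5.43%, with a median of -0.35 over all genes. When libraries of a code number were summed to 1 sample, 698 genes rose and 506 fell, so that 58.0% of called genes were higher and the balance turned.

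The direction of change differed by transcript abundance, measured as mean TPM (an abundance relative to all transcripts of a library that accounts for gene length) over the 7 libraries. Of the 1180 genes with a TPM of 100 or more, 281 (23.8%) rose and 37 (3.14%) fell. Of the 5816 genes between 10 and 100, 452 (7.77%) rose and 330 (5.67%) fell. Falls were the more frequent below this level, with 659 falls and 135 rises among 5806 genes between 1 and 10, and 110 falls and 17 rises among 1331 genes under 1.

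This pattern was read on the TMM scale. The median SE of the log2 fold change was 0.112 in the most abundant class and 0.584 in the least abundant, so a change of equal size was harder to call at low abundance. With library size alone 60.6% of the calls at a TPM of 100 or more were rises, but with limma on log2(TPM + 1) only 35.0% were, and the direction of this class turned. Between 10 and 100 the share of rises was 57.8% with TMM, 45.4% with upper quartile scaling and 14.2% with library size alone. In all 5 of these settings (TMM, RLE, upper quartile, library size alone and log2(TPM + 1)) the share of rises was highest in the most abundant class.

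**Figure D2:**
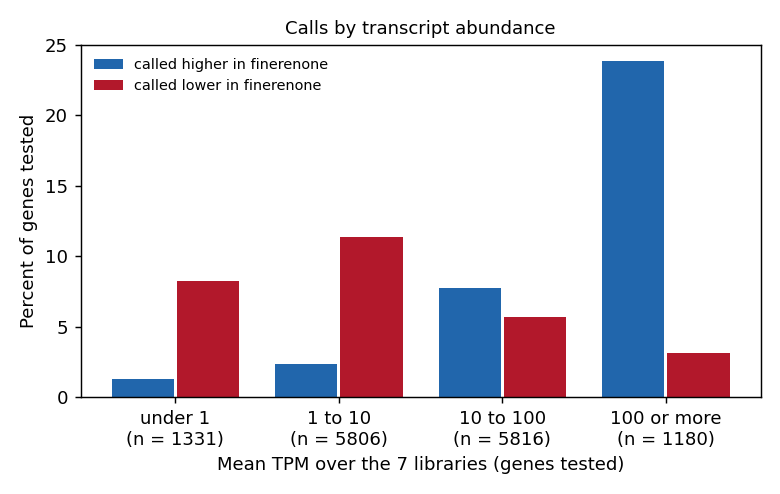
Bars give the percent of genes tested that were called higher (blue) or lower (red) in finerenone vs DOCA kidneys on the TMM scale, in 4 classes of mean TPM over the 7 libraries. Rises reach 23.8% of genes with a TPM of 100 or more, and falls 11.4% of genes between 1 and 10.

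The called genes took up a different part of the RNA in both groups. The 885 genes that rose held 27.2%, 28.8% and 25.1% of all counts in DOCA replicates 1, 2 and 3, and 38.5%, 41.0%, 36.8% and 38.8% in finerenone replicates 1, 2, 3 and 4. All 4 finerenone libraries thus lay above the 3 DOCA libraries, as the choice of these genes fixes. The share was 39.3% ± 1.04 (SD, n = 4) in control libraries and 27.8% ± 1.88 (SD, n = 3) in spironolactone libraries, neither of which was in the contrast that chose the genes.

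The 1136 genes that fell held 6.14%, 6.08% and 6.63% of the counts in the DOCA libraries. In finerenone replicates 1, 2, 3 and 4 the share was 2.62%, 2.77%, 2.80% and 2.90%. The DOCA level was again not reached in any finerenone library. These genes held 2.00% ± 0.138 (SD, n = 4) of the counts in control and 6.17% ± 1.08 (SD, n = 3) in spironolactone libraries. A share of counts is relative to the library total and uses no TMM factor, but the genes were chosen on the TMM scale. The shares of different genes are also bound to each other, since a rise of abundant genes lowers the share left for all others.

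**Figure D3:**
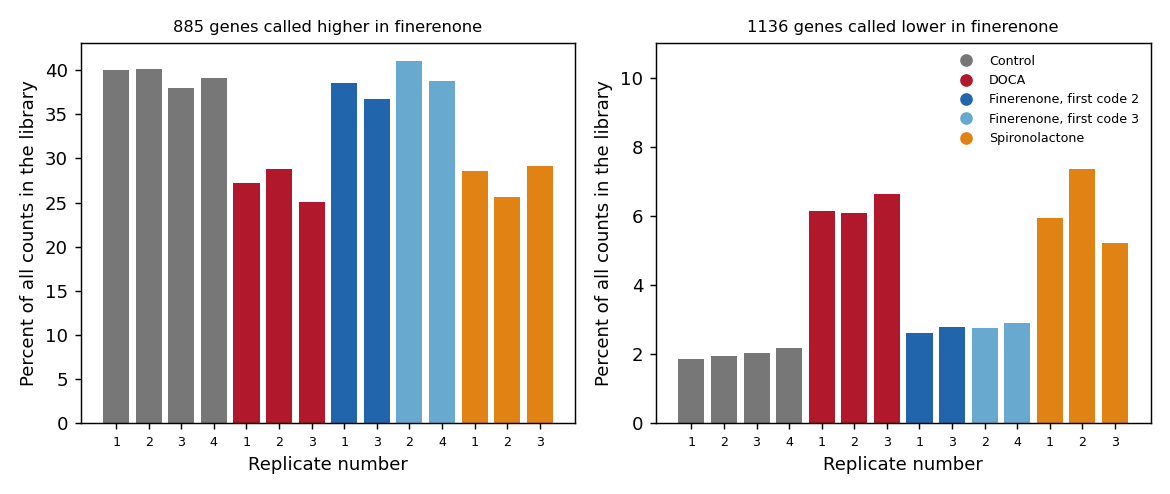
Bars give the percent of all counts of each library held by the 885 genes called higher (left) and the 1136 genes called lower (right) in finerenone vs DOCA kidneys. Finerenone libraries sit between 36.8% and 41.0% on the left against 25.1% to 28.8% in DOCA, and between 2.62% and 2.90% on the right against 6.08% to 6.63% in DOCA.

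Fewer genes had a count in finerenone kidneys. Between 15501 and 15781 genes were detected in finerenone libraries and between 15810 and 16102 in DOCA libraries, without overlap. The mean was 15648 ± 120 (SD, n = 4) against 15991 ± 158 (SD, n = 3). The difference of -344 genes gave p = 0.0286 in an exact permutation test (2-sided), the lowest value possible with 4 libraries against 3. When all libraries were thinned to 7068949 counts the difference was -343 genes, with the same exact permutation p of 0.0286. The exact permutation p adjusted over these 2 tests was also 0.0286. Thinning equalizes the totals but not how counts are spread over genes. The top 50 genes of a library held 27.8% to 32.6% of its counts in finerenone and 22.6% to 25.8% in DOCA libraries. Whether this lowers the number of genes detected was not tested.

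Over all called genes the log2 fold change reached 5.12 and -4.45, in genes that did not meet the criteria used for printing an ID. The 4 IDs printed are given without names. They are the 2 that rose most and the 2 that fell most among the IDs that met these criteria, and were taken after their values were seen, from 943 IDs (532 higher, 411 lower) that were called in both finerenone code numbers, reached a mean log2 CPM of 1 and did not overlap between groups, so their separation is part of how they were chosen.

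ENSRNOG00000008915 had the largest rise among these 943 IDs. Its CPM was 17.9, 12.1 and 7.74 in DOCA replicates 1, 2 and 3, and 144.6, 136.8, 129.2 and 103.3 in finerenone replicates 1, 2, 3 and 4. Every finerenone library was also above the control libraries, which lay between 29.6 and 77.7, and the spironolactone libraries, which lay between 8.40 and 27.6. The gene rose by 3.35 ± 0.47 (SE) on the log2 scale (edgeR adjusted p of 0.000642). The log2 fold change was 3.44 in code number 2 and 3.26 in code number 3.

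ENSRNOG00000032508 was a gene of low abundance in DOCA kidneys that rose with finerenone. Its CPM was 1.02, 1.01 and 0.442 in the DOCA libraries and 6.52, 4.54, 6.39 and 7.30 in finerenone replicates 1, 2, 3 and 4. Control libraries lay between 6.24 and 12.9, so 3 finerenone libraries were within the control range and replicate 2 was below it, while spironolactone libraries lay between 0.119 and 0.618. The rise was 2.90 ± 0.39 (SE) on the log2 scale (edgeR adjusted p of 6.27e-05). The DOCA level rested on 21 counts in all 3 libraries.

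ENSRNOG00000014343 had the largest fall among the 943 IDs. Its CPM was 8.71, 7.81 and 8.29 in the DOCA libraries and 1.98, 0.710, 1.504 and 0.894 in finerenone replicates 1, 2, 3 and 4. Control libraries were at 0.312 to 0.797, and spironolactone libraries reached from 2.97 up to 8.77, the DOCA level. This was a log2 fold change of -2.68 ± 0.38 (SE) (edgeR adjusted p of 9.78e-05). It was -2.24 in code number 2 and -3.34 in code number 3, a difference that did not pass the test (edgeR adjusted p of 0.369). These levels rested on 26 counts in code number 2 and 11 in code number 3, and the control level on 15.

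ENSRNOG00000001692 was close to equal in the 3 DOCA libraries compared, with a CPM of 5.88, 5.54 and 5.75. DOCA replicate 4, which was not compared, had a TPM of 1.67, against 3.64 to 4.21 in those 3. The CPM was 0.567, 1.14, 0.125 and 1.94 in finerenone replicates 1, 2, 3 and 4, and the lowest of these rested on 1 count. Control libraries lay between 0.419 and 1.08 and spironolactone libraries between 1.78 and 4.83. This was a log2 fold change of -2.62 ± 0.50 (SE) (edgeR adjusted p of 0.00128). It was -4.03 in code number 2 and -1.89 in code number 3, which differed at an unadjusted p of 0.0093 but not after adjustment over all genes (edgeR adjusted p of 0.151).

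**Figure D4:**
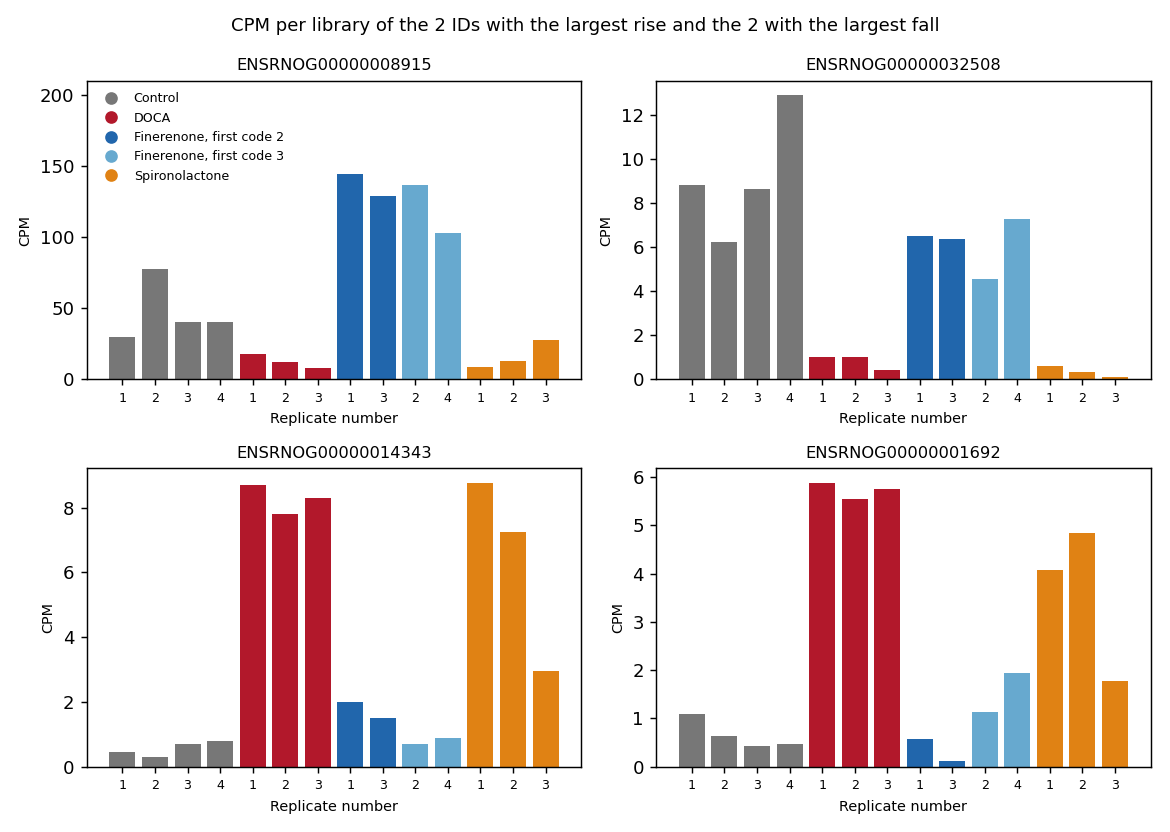
Bars give the CPM of each library for the 2 IDs that rose most (top) and the 2 that fell most (bottom) among the 943 IDs that met the criteria, by group and replicate number. In each panel the 4 finerenone libraries (both blues) lie wholly on one side of the 3 DOCA libraries (red), for example 103.3 to 144.6 against 7.74 to 17.9 CPM for ENSRNOG00000008915.

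Whether the effect held in both finerenone code numbers was examined by fitting each of them as a group of its own. Code number 2 differed from DOCA in 1586 genes (11.2%), of which 759 (5.37%) were higher and 827 (5.85%) lower. Code number 3 differed from DOCA in 2426 genes (17.2%), of which 995 (7.04%) were higher and 1431 (10.1%) lower. Both contrasts use the same 3 DOCA libraries, so a deviation of these libraries would enter both. Leaving out a finerenone library leaves 1 in its code number, so fewer calls there do not single out that library. Both counts were lower in these fits. Code number 2 had 918 calls without finerenone replicate 1, of which 539 were higher and 379 lower, and 1034 without replicate 3, of which 674 were higher and 360 lower. Code number 3 had 1397 calls without replicate 2, of which 706 were higher and 691 lower, and 1220 without replicate 4, of which 668 were higher and 552 lower. Rises thus outnumbered falls in each of these 4 fits, unlike in the fits of both libraries.

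Of the 2021 genes called with all 4 finerenone libraries, 966 (47.8% of the called genes and 6.84% of the genes tested) were called in the same direction in both code numbers, 538 higher and 428 lower. A further 322 were called in code number 2 only, 529 in code number 3 only and 204 in neither. None of the 2021 genes had a fold change of opposite sign in either code number, which follows in part from their choice on all 4 libraries. A call in 1 code number alone is not a difference between them: 3 of the 322 and 18 of the 529 genes were called between the code numbers. Over all genes tested this share was 1.65%.

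Among the 2021 genes called with all 4 finerenone libraries, the size of the effect was close in both code numbers. Their choice on all 4 libraries favours genes that changed alike in both, so this closeness is in part fixed. Genes called higher had a median log2 fold change of 0.73 in code number 2 and 0.75 in code number 3, and genes called lower had -0.88 and -0.93. The change was larger in code number 2 for 411 (46.4%) of the genes that rose and for 565 (49.7%) of those that fell. The libraries of code number 2 lay apart from all DOCA libraries in 1965 of the called genes, against 48.2% of all genes tested. Those of code number 3 did so in 1990, against 57.5%. Both counts are in large part fixed by the choice of the called genes on the same libraries. Calls in both code numbers were most frequent among abundant genes, with 75.2% of the called genes at a TPM of 100 or more. The share was 53.7% between 10 and 100, 35.0% between 1 and 10 and 22.8% under 1. With all 4 finerenone libraries the median SE was 0.112 in the most abundant class and 0.584 in the least abundant. A change of equal size was thus harder to call at low abundance.

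Each code number also had calls of its own that the comparison of all 4 libraries did not give. There were 298 such genes in code number 2 and 931 in code number 3, and 1 gene was called in opposite directions by the code numbers. The distance between libraries of different code numbers was 0.585 to 0.625 in log2 CPM. It was 0.578 within code number 2 and 0.493 within code number 3, so the libraries of code number 2 stood almost as far from each other as from those of code number 3.

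The code numbers differed from each other in 233 genes (1.65%) by edgeR's quasi-likelihood test. Of these, 209 (1.48%) were higher in code number 2 and 24 (0.170%) were lower. Of the 233 genes, 29 were also called in finerenone vs DOCA, where 14.3% of all genes tested were called. All 29 were among the genes that fell, and 25 of them had the deeper fall in code number 3. As 209 of the 233 were lower in code number 3, this is in large part fixed by their choice. A fit without a finerenone library leaves 1 library in its code number, so a loss of calls there does not single out that library. The number of such genes changed with the libraries fitted. It was 4 without finerenone replicate 2, 5 without replicate 3 and 0 without replicate 4, where 1520 genes still had an unadjusted p under 0.05, and 91 without replicate 1. It was 138 without DOCA replicate 1 and 107 without DOCA replicate 2. With all 16 libraries in the fit it was 0, with 1625 genes at an unadjusted p under 0.05, whereas DESeq2 called 382 genes and limma-voom 51.

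The 209 genes were mostly low in code number 3 rather than high in code number 2. They were chosen on the difference between the code numbers, so the values here are a description without a test. Relative to the DOCA mean their median log2 level was 0.00 and 0.16 in finerenone replicates 1 and 3, and -0.77 and -0.82 in replicates 2 and 4. It was between -0.36 and 0.03 in control libraries and between -0.04 and 0.02 in spironolactone libraries. Of the 209 genes, 158 were called lower than DOCA in code number 3 and not called in code number 2. A further 11 were called higher in code number 2 only and 7 were lower in both. Of the rest, 32 were called in neither and 1 was called in opposite directions. Over all genes tested, 10.1% were called lower in code number 3 and 5.37% higher in code number 2. Both libraries of code number 3 were below the 3 DOCA libraries in 198 of the 209 genes, against 31.2% of all genes tested. They were below all 10 libraries of the other groups in 174 of them, against 6.48% of all genes tested. Both libraries of code number 2 were above these 10 libraries in 15, against 1.29%. The median difference between code numbers was 0.90, and 116 of the genes had a mean TPM between 1 and 10 and 87 between 10 and 100.

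The 24 genes that were lower in code number 2 had a median difference of -0.68. They too were chosen on the difference between the code numbers, so their values are a description without a test. Their median log2 fold change against DOCA was -0.48 in code number 2 and 0.13 in code number 3. Of these genes 11 were called lower than DOCA in code number 2 only and 4 were called higher in code number 3 only. A further 1 was lower in both and 8 were called in neither. Over all genes tested, 5.85% were called lower in code number 2 and 7.04% higher in code number 3. Which cells or functions either set belongs to was not examined, as the IDs have no names here.

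**Figure D5:**
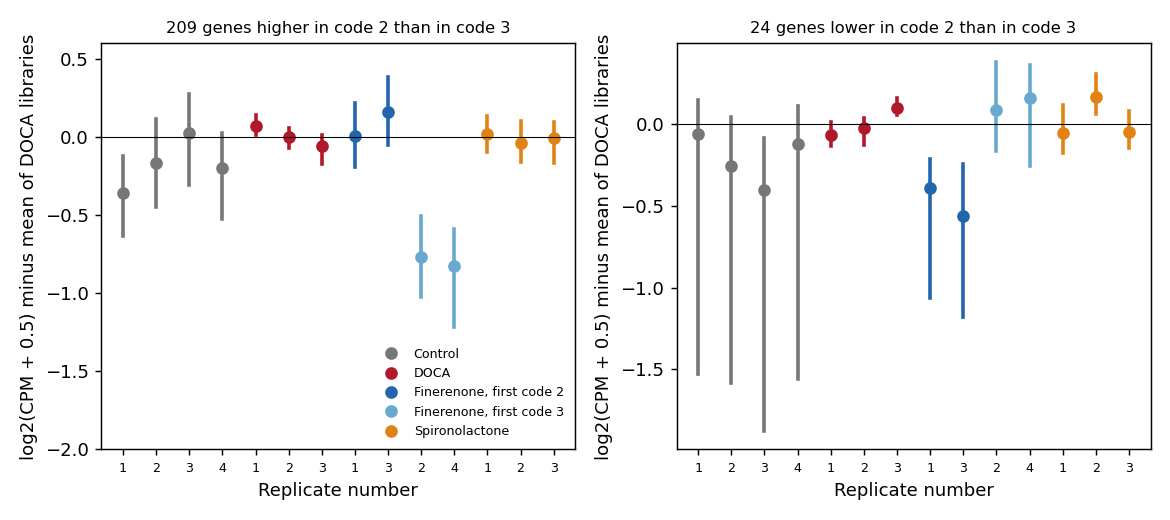
Points give, for each library, the median over genes of log2(CPM + 0.5) minus the mean of the 3 DOCA libraries, for the 209 genes higher (left) and the 24 genes lower (right) in code number 2 than in code number 3, with lines over the middle 50% of genes. On the left finerenone replicates 2 and 4 lie at -0.77 and -0.82 while replicates 1 and 3 lie at 0.00 and 0.16.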

How the data were processed

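Whole kidney polyA RNA was sequenced from strand-specific libraries. Per the submitters' processing notes and the labels, the authors trimmed reads with Trim Galore 0.4.5, aligned them with STAR 2.7.3a, used the build rn6 (Rnor_6.0) and obtained gene values from RSEM. The annotation was not given in the sources used here. The deposited expected counts were not scaled (3.14% were not whole) and were rounded. The deposited TPM values are, as the authors made them, relative to gene length and library total, and were used for abundance classes and in 1 alternative. RSEM divides reads among near-identical genes, so genes with close copies are uncertain.

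The groups were taken from the labels. DOCA replicate 4 and spironolactone replicate 4, taken to be the libraries the study set aside, were left out, so 14 of 16 libraries entered the fit. Genes whose count exceeded 4 in 3 or more of the 7 libraries compared were tested with edgeR 4.0.16 (R 4.3.3), by the robust quasi-likelihood F test with TMM scaling and no block. Code numbers were fitted as separate finerenone groups. SE was the absolute log2 fold change divided by the square root of F. The common biological coefficient of variation was 0.163. CPM refer to TMM-scaled totals. A floor of 3 counts was 0.332 to 0.447 CPM in the 7 libraries, and covers counting error only. Chi-square per gene between libraries of a group was 4.39 to 16.8, where sampling alone gives 1, so no library was taken as a duplicate. Medians over gene sets per library used log2(CPM + 0.5).

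The naming rule asked for a known name and so named no gene. The 4 IDs printed met its other criteria. The members and the planned gene lists were chosen with earlier results of these data known. On simulated counts for finerenone vs DOCA (14047 genes), 46 of 64 genes changed 2-fold, 61 of 66 changed 4-fold and 54 of 60 changed 8-fold were recovered, with 6 false calls. For code number 2 vs 3 (14049 genes), 35 of 66, 51 of 65 and 53 of 62 were recovered, with 8 false calls. For finerenone vs DOCA, fewer genes were changed in these counts than the 2021 called in the data. The rate of recovery or of false calls with that many changes was not tested. Alternatives covered scaling, filters, DESeq2 1.42.0, limma 3.58.1 (voom and log2(TPM + 1)), libraries in the fit, a replicate block, thresholds, summed code numbers and leaving out each library. The limit-free threshold and the abundance classes by scaling were added after seeing the data.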

Additional observations from a re-analysis of the deposited data

Results flagged for a closer look

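DOCA replicate 4, taken to be the library the study set aside, was not used to choose the 1136 genes that fell with finerenone. These genes held 9.30% of its counts, above the 2.18% that was the highest share in a control library and above the 6.63% that was the highest in the DOCA libraries compared.

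The finerenone code numbers differed from each other in 233 genes by a test of the difference itself. Of these, 209 were higher in code number 2 and 24 lower. Both code numbers received the same treatment per the labels.

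Control replicate 3 stood apart from the other 3 control libraries in the number of genes with a count, at 15438 against 15255 to 15282. This was 1 of 18 sets of 4 libraries examined for a single distant library, where 0.9 would be flagged by chance. Control libraries were not part of the comparison of finerenone with DOCA.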

How the results depend on the processing

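The count for finerenone vs DOCA (2021) stayed within 1.5 times in 10 of 15 alternatives. It was 3298 with library size alone, 4328 with limma on log2(TPM + 1), 648 with the log2 fold change limit raised to 1, 3117 at any fold change and 1204 with libraries of a code number summed. Leaving out 1 library gave 1531 to 2168. Code number 2 vs DOCA (1586) gave 2760 with log2(TPM + 1), 561 at that limit and 918 to 1477 leaving out 1 library, with 918 without finerenone replicate 1 and 1034 without replicate 3. Code number 3 vs DOCA (2426) gave 3692 with library size alone, 5444 with log2(TPM + 1), 816 at that limit and 1220 to 2391 leaving out 1 library, with 1397 without replicate 2 and 1220 without replicate 4. Calls in both code numbers (966) were 1596 with library size alone, 2188 with log2(TPM + 1), 265 at that limit and 601 to 848 leaving out 1 library, with 601, 642 and 622 without finerenone replicates 1, 2 and 4. Code number 2 vs 3 (233) was 382 with DESeq2, 51 with limma-voom, 429 with only the 7 libraries, 0 with all 16 libraries, 82 at that limit and 0 to 186 leaving out 1 library. A higher limit reduces calls by construction, and the other causes were not tested. A contrast that leaves 1 library in a code number assumes that it varies like the other groups. Same-numbered libraries did not deviate together (r of 0.088, -0.024 and -0.065 for replicates 1, 2 and 3), so replicate numbers do not pair the groups. With a replicate block, finerenone vs DOCA had 1976 calls, code numbers 2 and 3 vs DOCA 1439 and 1927, and code number 2 vs 3 had 2. The block also takes up part of the code number, which follows the replicate numbers. All 4 printed IDs kept their call and direction in 15 alternatives and 7 fits without a library. Depth limited genes with few counts, and 2 libraries per code number limit that comparison.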
